A study of Mus musculus with 8 samples.

Results

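The CC chemokine genes described here were Ccl2, Ccl3, Ccl4, Ccl5, Ccl6, Ccl7, Ccl8, Ccl9, Ccl22 and Ccl24, 10 of the 54309 genes in the count table, all found by gene identifier through the symbols of the authors' deposited table. They were measured by polyA RNA sequencing of whole liver from male C57BL/6 mice with diet-induced non-alcoholic steatohepatitis (NASH). Every mouse received a diet of fructose, palmitate and cholesterol for 16 weeks. From week 8 to week 16 the animals were injected intraperitoneally with IgG, the control antibody, or with anti-CD47 at 200 µg per mouse, and each treatment gave 4 libraries. CD47 is the surface protein that signals through SIRPα on phagocytes to restrain engulfment. The comparison therefore asks which chemokine transcripts differed in the NASH liver after CD47 was blocked. The series states 7 to 8 mice per group and does not tie a library to a mouse, so p-values measure the spread between these libraries, which may be technical. No group on another diet was analysed here, and in whole liver, fewer cells of a type and less RNA per cell cannot be told apart.

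CC chemokines are small secreted proteins that bind heparan sulfate on the vessel wall and direct leukocytes along a gradient through receptors of the CCR family. CCL2, CCL7 and CCL12 act on CCR2 and draw monocytes out of marrow and blood, CCL3, CCL4 and CCL5 attract T cells, NK cells and monocytes, and CCL6 and CCL9 act on CCR1. CCL8 acts on CCR8 in the mouse, CCL22 on CCR4, and CCL24 on CCR3, the main eosinophil chemokine receptor. In the liver they are made by Kupffer cells, recruited monocytes, stellate cells, endothelium and lymphocytes.

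The family takes its name from a pair of adjacent cysteines near the start of the mature protein, and the codons of that pair are shown because they are what all 10 genes share. Each line gives 42 bases of the coding sequence, 5′ to 3′, from the GENCODE M21 transcripts of build GRCm38.p6, with the pair of cysteine codons in capitals.
Ccl2: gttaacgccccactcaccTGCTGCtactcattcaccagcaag
Ccl7: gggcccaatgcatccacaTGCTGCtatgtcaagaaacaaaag
Ccl8: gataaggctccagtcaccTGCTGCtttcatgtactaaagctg
Ccl5: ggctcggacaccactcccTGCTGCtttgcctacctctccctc
Ccl9: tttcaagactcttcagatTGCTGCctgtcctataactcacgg
Ccl6: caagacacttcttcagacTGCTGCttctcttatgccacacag
Ccl3: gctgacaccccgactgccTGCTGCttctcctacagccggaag
Ccl4: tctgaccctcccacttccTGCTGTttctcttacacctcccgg
Ccl22: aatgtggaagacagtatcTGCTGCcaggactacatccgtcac
Ccl24: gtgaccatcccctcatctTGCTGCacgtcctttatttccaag

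The pair was spelled TGC TGC in every member except Ccl4, where the second codon was TGT. For Ccl24, whose coding sequence holds 2 such pairs, the pair shown starts at codon 33. It is the last pair followed by at least 2 further cysteines. Over the 45 pairs of members, identity of the aligned coding sequences ran from 38.5% to 68.1%, with a median of 48.9%. Ccl3 and Ccl4 were the closest pair (68.1%), followed by Ccl7 and Ccl8 (64.7%) and by Ccl6 and Ccl9 (64.6%). Between 96.2% (Ccl9) and 100% of the 31-letter words of each member's transcripts occurred in no other gene, so reads were unlikely to be split between members. By RefSeq gene order, 8 members lie on chromosome 11 in a pair of runs. The first holds Ccl2, Ccl7, Ccl11, Ccl12, Ccl8 and Ccl1, and the second, 25 protein-coding genes further on, holds Ccl5, Ccl9, Ccl6, Ccl3 and Ccl4. Ccl24 lies on chromosome 5 and Ccl22 on chromosome 8.

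Hepatocyte markers, such as albumin, summed to between 58200 and 72290 CPM in each of the 8 libraries. Library totals ran from 43691472 to 55477484 counts, and levels were given as CPM, that is, counts scaled to a common library size with the trimmed mean of M-values (TMM). Of the 10 members, 9 passed the low-count filter, and Ccl8 did not. Among the 15472 genes tested with edgeR's quasi-likelihood test, 10.8% passed an adjusted p of 0.05, 5.44% higher and 5.4% lower in the anti-CD47 livers. Of the 9 tested members, 2 rose, Ccl6 and Ccl24, and 0 fell. At an unadjusted p under 0.05, which 32.5% of all tested genes reached, 4 were higher and 1 was lower. DESeq2 called 3 members higher, Ccl7 being the addition, and 0 lower, beside 11.4% and 9.96% of all genes. Limma voom called 2 higher and 0 lower, beside 5.21% and 6.11%. The groups did not overlap for 2 members, both higher, beside 19.6% of all tested genes (9.51% higher and 10.1% lower). The median log2 fold change of the 9 was 0.21, beside -0.0064 over all genes tested, and 6 of 9 had a positive value, beside 49% of all genes. Scaling by library totals alone shifted the median of all genes to -0.193 and split the calls into 2.77% higher and 20.4% lower. Summed over the 10 members, the level was 66.7, 66.8, 80.1 and 73.6 CPM in IgG 1 to 4 and 82.7, 101, 99.2 and 112 CPM in antiCD47 1 to 4.

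**Figure D1:**
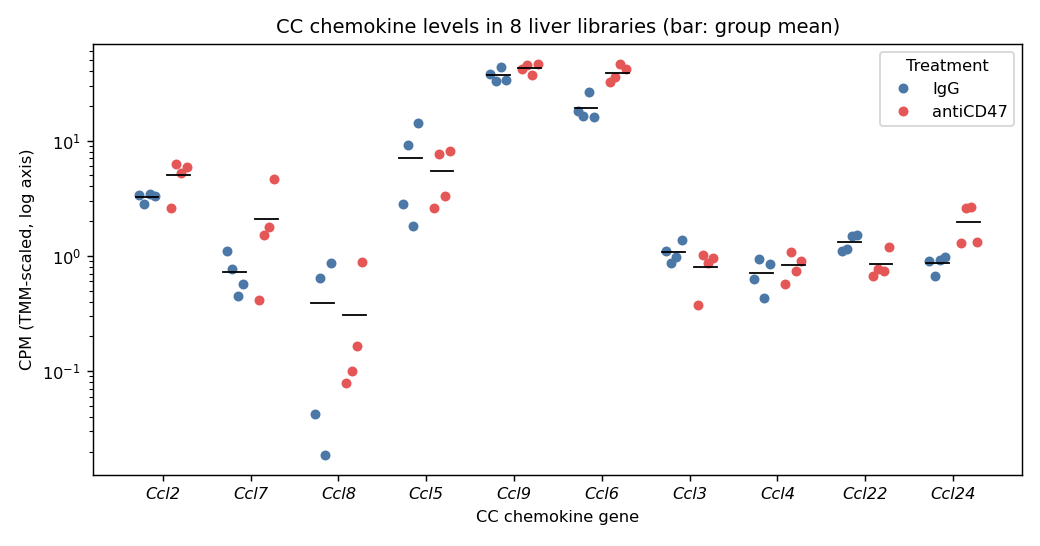
Level of each CC chemokine in CPM on a log axis, with 1 point for each of the 4 IgG (blue) and 4 antiCD47 (red) libraries and a bar at the group mean. Only Ccl6 and Ccl24 have groups that do not overlap, while the points of Ccl5 and Ccl8 spread widely within both treatments.

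Ccl6 and Ccl9 encode constitutively expressed CCR1 ligands of macrophages and myeloid cells, and they were the most abundant members in CPM. Ccl6 (ENSMUSG00000018927) was at 18.1, 16.5, 26.6 and 16.1 CPM in IgG 1 to 4 and at 32.2, 35.3, 46.4 and 41.6 CPM in antiCD47 1 to 4. Every antiCD47 library lay above every IgG library. The mean rose from 19.3 ± 4.95 to 38.9 ± 6.35 CPM (SD, n = 4 each), a log2 fold change of 1.01 ± 0.17 (SE) with an adjusted p of 0.0171 by edgeR. The adjusted p rose above 0.05 without IgG 1 (0.0553), without IgG 4 (0.0615) and without antiCD47 3 (0.063), with log2 fold changes of 0.91 to 0.98. A gene on the opposite strand, E230016K23Rik, overlaps Ccl6 and had 5 to 10 counts per library.

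Ccl9 (ENSMUSG00000019122) was at 37.5, 33.2, 44.0 and 33.8 CPM in IgG 1 to 4 and at 41.8, 45.1, 37.4 and 46.6 CPM in antiCD47 1 to 4. The groups overlapped, since IgG 3 lay above antiCD47 1 and antiCD47 3. Its log2 fold change was 0.20 ± 0.11 with an edgeR adjusted p of 0.209. Ccl9 had the smallest spread within groups of the tested members, an SD of 0.165 on the log2 CPM scale, against 0.290 for Ccl6 and 1.14 for Ccl5.

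The ratio of Ccl6 to Ccl9, a quantity chosen after the values of both genes were seen, compares these neighbours within each library and so does not depend on the scaling. It was 0.483, 0.496, 0.606 and 0.476 in IgG 1 to 4 and 0.771, 0.783, 1.24 and 0.893 in antiCD47 1 to 4. The groups did not overlap, and the mean log2 ratio went from -0.96 ± 0.16 for the IgG libraries to -0.14 ± 0.32 for the antiCD47 libraries (SD, n = 4 each). The difference of 0.82 is a description with no test, since the ratio was chosen with the values known. Ccl6 made up 26.8 ± 4.85% of the summed CPM of the family in IgG and 39.4 ± 5.19% in antiCD47, while Ccl9 made up 51.7 ± 4.77% and 43.6 ± 5.47%.

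**Figure D2:**
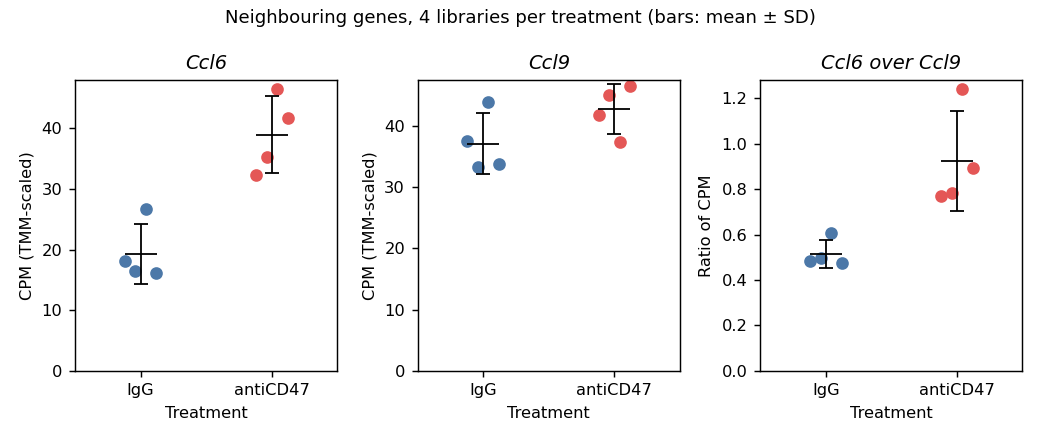
Ccl6 and Ccl9 in CPM and the ratio of Ccl6 to Ccl9, with 1 point per library and the mean ± SD of 4 libraries for each treatment. The 4 antiCD47 libraries lie above the 4 IgG libraries for Ccl6 and for the ratio, and the groups overlap for Ccl9.

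The promoter windows of this pair are shown because the genes are adjacent and close in coding sequence. Each is the 300-base RefSeq window of build GRCm38.p6 around the annotated start, on the minus strand and 5′ to 3′, with capitals marking runs of at least 10 bases that occur exactly in both windows.
Ccl6: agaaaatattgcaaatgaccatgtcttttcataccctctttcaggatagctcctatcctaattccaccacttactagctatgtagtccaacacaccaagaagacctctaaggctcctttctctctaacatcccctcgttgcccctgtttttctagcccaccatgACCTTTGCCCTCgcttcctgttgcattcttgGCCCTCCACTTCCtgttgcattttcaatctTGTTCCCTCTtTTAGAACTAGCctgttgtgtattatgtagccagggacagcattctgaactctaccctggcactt
Ccl9: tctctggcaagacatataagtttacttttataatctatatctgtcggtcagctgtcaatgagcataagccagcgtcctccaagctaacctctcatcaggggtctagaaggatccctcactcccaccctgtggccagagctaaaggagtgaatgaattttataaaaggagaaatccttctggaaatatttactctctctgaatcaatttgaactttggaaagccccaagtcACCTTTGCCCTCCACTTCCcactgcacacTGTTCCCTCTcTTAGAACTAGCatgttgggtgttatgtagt

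The shared runs covered 46 bases of the Ccl6 window and 40 bases of the Ccl9 window. A local alignment matched 58 of 74 positions (78.4%), from base 192 to base 265 of the Ccl6 window and from base 233 to base 299 of the Ccl9 window, counted from 1 at the 5′ end. The letters TATAAA, searched on both strands, matched 3 times in the Ccl9 window and 0 times in the Ccl6 window. Overlapping matches on opposite strands were counted separately, which happened in the Ccl9 window. Of 32851 RefSeq promoter windows of this length, 13.6% hold these letters. These matches describe the letters alone. RefSeq windows were matched for 5 of the 10 members, Ccl3, Ccl6, Ccl8, Ccl9 and Ccl22.

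Ccl24, or eotaxin-2, attracts eosinophils through CCR3 and is made by alternatively activated macrophages. Ccl24 (ENSMUSG00000004814) was at 0.904, 0.673, 0.912 and 0.985 CPM in IgG 1 to 4 and at 1.30, 2.58, 2.66 and 1.32 CPM in antiCD47 1 to 4, from 186 and 381 counts in all. The groups did not overlap, and antiCD47 2 and antiCD47 3 stood above the other anti-CD47 livers. The mean rose from 0.869 ± 0.136 to 1.96 ± 0.758 CPM, a log2 fold change of 1.18 ± 0.29 with an edgeR adjusted p of 0.0355. Leaving out any IgG library gave an adjusted p of 0.0645 to 0.0924, leaving out antiCD47 2 gave 0.0809 and leaving out antiCD47 3 gave 0.106, these last fits having log2 fold changes of 1.02 and 1.00. With the replicate number as a block, a fit that called 7.85% of all genes higher and 7.83% lower, the adjusted p was 0.051.

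Kupffer cell markers were also higher in the antiCD47 libraries. Of 12 such markers, 9 rose and 0 fell, beside 5.44% of all tested genes higher and 5.4% lower. Among those that rose were Fcna (log2 fold change 1.39), Folr2 (1.18), Clec4f (1.09) and Cd163 (2.33). The summed level of the 12 markers ran from 348 to 549 CPM in IgG and from 559 to 921 CPM in antiCD47. Within antiCD47 the order of the libraries differed. The sum was highest in antiCD47 2 (921 CPM), where Ccl6 was at 35.3 CPM. Ccl6 and Ccl24 were highest in antiCD47 3, where the sum was 773 CPM. Markers of monocytes, the blood precursors of macrophages, rose for 3 of 10 genes (F13a1, Plac8 and Itgam), with sums of 201 to 328 CPM and 300 to 377 CPM. Cx3cr1, a monocyte marker named after its values were seen, was at 13.4 CPM in IgG and 6.90 CPM in antiCD47, a log2 fold change of -0.96 ± 0.34 with an edgeR adjusted p of 0.0873, and DESeq2 called it lower. All 8 tested of 10 neutrophil markers rose, with sums of 6.53 to 8.99 CPM and 16.3 to 34.9 CPM. DESeq2 called 8 of them higher and limma voom 6. The part of these cell types in the Ccl6 and Ccl24 results was not tested.

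Eosinophil markers gave no such pattern. Of 8 such markers, 2 passed the filter and 0 passed the edgeR test. At an unadjusted p under 0.05, 0 were higher and 0 lower, and DESeq2 and limma voom called 0. The defining granule gene Epx had 1 count over all 8 libraries, Ear1 had 0, and the sums were 5.75 to 11.1 CPM in IgG and 7.67 to 11.2 CPM in antiCD47, mostly from Ear2. Ccr3, the receptor of CCL24, had 29 counts summed over IgG and 20 summed over antiCD47 and was not tested.

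The genes whose centred log2 CPM profile over the 8 libraries was most like that of Ccl6 were Ifitm1, Btbd11, Ribc1 and Dnmt3b, with root mean square differences of 0.139, 0.195, 0.202 and 0.215. For Ccl24 they were Slfn1 (0.207), Zfp9 (0.212), Eya4 (0.215) and Folr2 (0.218). Folr2 is the Kupffer cell marker named above, and these profiles share the libraries and the treatment difference.

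The monocyte chemoattractants Ccl2 and Ccl7 lie, with Ccl8, in the first run on chromosome 11. Ccl2 (ENSMUSG00000035385), the main CCR2 ligand, was at 3.34, 2.80, 3.41 and 3.30 CPM in IgG 1 to 4 and at 2.58, 6.32, 5.20 and 5.88 CPM in antiCD47 1 to 4. AntiCD47 1 was the lowest of the 8 libraries, and the other 3 anti-CD47 livers were the highest. With all libraries the log2 fold change was 0.64 ± 0.24 and the edgeR adjusted p was 0.107. Without antiCD47 1 the log2 fold change was 0.85 and the adjusted p 0.00576, in a fit that called 11.7% of all genes higher.

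Ccl7 (ENSMUSG00000035373), a second CCR2 ligand and the next gene, was at 1.09, 0.764, 0.447 and 0.570 CPM in IgG 1 to 4 and at 0.413, 1.53, 1.78 and 4.63 CPM in antiCD47 1 to 4. Again antiCD47 1 was the lowest library, and antiCD47 4 was above all others. The log2 fold change was 1.54 ± 0.60 with an edgeR adjusted p of 0.113. Without antiCD47 1 it was 1.88 with an adjusted p of 0.0193, and without antiCD47 4 it was 0.80 with an adjusted p of 0.287. DESeq2 on all 8 libraries gave an adjusted p of 0.0333, and the authors' deposited table gives 0.0419 for Ccl7 and 0.0635 for Ccl2.

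Ccl12, the remaining mouse CCR2 ligand, was at 0, 0.255, 0.056 and 0.225 CPM in IgG 1 to 4 and at 0.315, 0.584, 1.09 and 0.510 CPM in antiCD47 1 to 4, from 30 and 120 counts in all. The groups did not overlap, and the edgeR log2 fold change was 2.16 ± 0.69 with an adjusted p of 0.0685. Without antiCD47 1 the adjusted p was 0.0404, and with DESeq2 it was 0.0159. Their receptor Ccr2, a marker of inflammatory monocytes, was at 13.6 ± 1.51 CPM in IgG and 11.98 ± 1.61 CPM in antiCD47, a log2 fold change of -0.18 ± 0.12 with an edgeR adjusted p of 0.306.

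**Figure D3:**
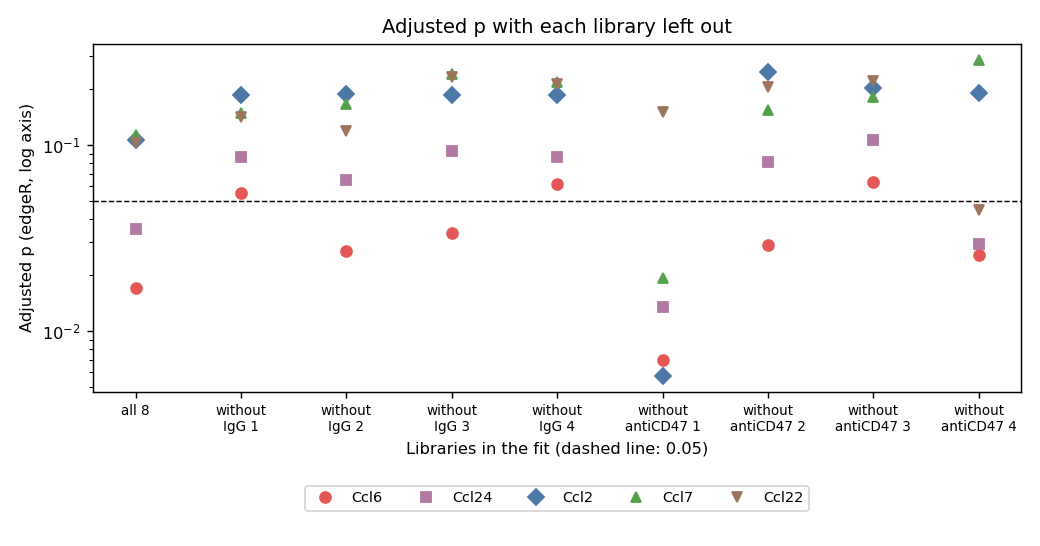
Adjusted p by edgeR, on a log axis, for Ccl6, Ccl24, Ccl2, Ccl7 and Ccl22 with all 8 libraries and with each library left out in turn, with a dashed line at 0.05. Ccl2 and Ccl7 lie below the line only without antiCD47 1, Ccl22 only without antiCD47 4, and Ccl6 and Ccl24 cross above it in several fits.

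Ccl8 (ENSMUSG00000009185), a CCR8 ligand, had 2, 35, 1 and 50 counts in IgG 1 to 4 and 4, 5, 8 and 38 counts in antiCD47 1 to 4. In CPM these were 0.042, 0.637, 0.019 and 0.864, then 0.079, 0.101, 0.164 and 0.880. IgG 2, IgG 4 and antiCD47 4 stood apart from the other 5 libraries, so the level did not follow the treatment. With no filter on low counts the edgeR log2 fold change was -0.40 ± 0.93 with an adjusted p of 0.822.

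Ccl5, Ccl3 and Ccl4 encode inflammatory chemokines made by activated leukocytes. Ccl5 (ENSMUSG00000035042), which activated T and NK cells produce, was at 2.84, 9.20, 1.81 and 14.2 CPM in IgG 1 to 4 and at 2.60, 7.63, 3.34 and 8.15 CPM in antiCD47 1 to 4. IgG 2, IgG 4, antiCD47 2 and antiCD47 4 were high and the other 4 libraries low, with both treatments in each set. The log2 fold change was -0.38 ± 0.61 with an edgeR adjusted p of 0.697, and without IgG 4 it turned to 0.23 with an adjusted p of 0.824.

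The summed level of 12 T and NK cell markers (Cd3d, Cd3e, Cd3g, Cd4, Cd8a, Cd8b1, Nkg7, Gzma, Gzmb, Ncr1, Prf1 and Foxp3) was 5.78, 12.7, 4.56 and 22.8 CPM in IgG 1 to 4 and 4.56, 8.01, 5.86 and 13.2 CPM in antiCD47 1 to 4. The 4 libraries with the highest marker sums were the 4 with the highest Ccl5, and the 3 highest were the 3 with the highest Ccl8. Of the 11 markers tested, 0 passed the edgeR test, 0 reached an unadjusted p under 0.05, and DESeq2 and limma voom called 0. The part of T and NK cells in the Ccl5 and Ccl8 levels was not tested.

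**Figure D4:**
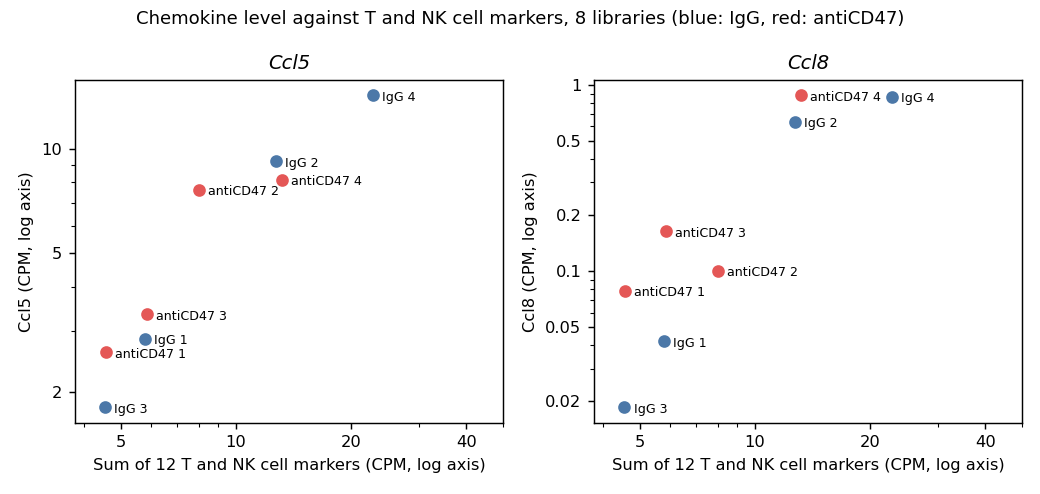
Level of Ccl5 and of Ccl8 in CPM against the summed CPM of 12 T and NK cell markers, both on log axes, with 1 labelled point per library (IgG blue, antiCD47 red). IgG 4, antiCD47 4 and IgG 2 have the highest marker sums and the highest Ccl8, and IgG 4 is highest for Ccl5.

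Ccl3 (ENSMUSG00000000982), a ligand of CCR1, was at 1.09, 0.873, 0.987 and 1.37 CPM in IgG 1 to 4 and at 0.374, 1.03, 0.860 and 0.950 CPM in antiCD47 1 to 4. AntiCD47 1 was the lowest library, as for Ccl2 and Ccl7, and the groups overlapped. Its log2 fold change was -0.43 ± 0.31 with an edgeR adjusted p of 0.36. Ccl4 (ENSMUSG00000018930), the neighbouring gene and the closest to Ccl3 in coding sequence, was at 0.631, 0.946, 0.428 and 0.847 CPM in IgG 1 to 4 and at 0.570, 1.09, 0.737 and 0.903 CPM in antiCD47 1 to 4. The groups overlapped over most of their range, with a log2 fold change of 0.21 ± 0.31 and an edgeR adjusted p of 0.672.

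Ccl22 (ENSMUSG00000031779), made by dendritic cells and macrophages and a ligand of CCR4 on regulatory and type 2 T cells, was the one tested member with an unadjusted p under 0.05 and a lower level after anti-CD47. It was at 1.09, 1.15, 1.49 and 1.52 CPM in IgG 1 to 4 and at 0.669, 0.765, 0.737 and 1.204 CPM in antiCD47 1 to 4. AntiCD47 4 lay within the IgG range, and the other 3 antiCD47 libraries lay below it. The log2 fold change was -0.64 ± 0.24 with an edgeR adjusted p of 0.103. Without antiCD47 4 it was -0.85 with an adjusted p of 0.0445. Limma voom with quality weights, a fit that called 14.2% of all genes lower, gave an adjusted p of 0.034. Ccl22 passed in 2 of 19 alternatives.

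Of 10 tested dendritic cell markers, 1 had a positive log2 fold change, and 1, Flt3, fell, beside 5.4% of all tested genes lower. Flt3, the receptor for the dendritic cell growth factor FLT3L, went from 1.61 ± 0.312 to 0.966 ± 0.108 CPM with an edgeR adjusted p of 0.0429. It passed in 12 of 19 alternatives. The sum of the 10 markers was 31.1 to 42.4 CPM in IgG and 26.9 to 32.3 CPM in antiCD47, and their part in the Ccl22 values was not tested. Ccl17, the other CCR4 ligand, had 13 counts summed over IgG and 6 over antiCD47, and Ccr4 had 16 and 11, too few to be tested.

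Divided by transcript length, the order of the levels differed from that in CPM. In IgG, Ccl6 (13.4 ± 3.44 CPM per kb), Ccl5 (13.2 ± 10.9) and Ccl9 (12.4 ± 1.64) led and overlapped one another. Ccl2 followed at 3.95 ± 0.342 CPM per kb, overlapping neither Ccl9 nor Ccl3. Its IgG libraries lay within the IgG range of Ccl5, 3.395 to 26.77 CPM per kb. Ccl3, Ccl4, Ccl24, Ccl7, Ccl8 and Ccl22 came next, from 1.41 down to 0.592 CPM per kb, each overlapping its neighbour. In antiCD47, Ccl6 stood alone at 27.0 ± 4.41 CPM per kb, above Ccl9 at 14.2 ± 1.37 and Ccl5 at 10.2 ± 5.39. Ccl2, Ccl7, Ccl24, Ccl4, Ccl3, Ccl8 and Ccl22 followed, and each of these overlapped its neighbour in the order.

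Of 9 CC receptors, 3 passed the filter and 0 passed the edgeR test. At an unadjusted p under 0.05, 0 were higher and 0 lower, and DESeq2 and limma voom called 0. Ccr1, the receptor of CCL6 and CCL9, was at 1.94 ± 0.479 and 2.08 ± 0.260 CPM, a log2 fold change of 0.10 ± 0.20 that turned to -0.086 when library totals alone set the scale. Ccr7, which guides dendritic cells and T cells to lymph nodes, was at 1.13 ± 0.344 and 0.844 ± 0.217 CPM, with an adjusted p of 0.316. Ccr6, Ccr8, Ccr9 and Ccr10 had at most 50 counts over 4 libraries and were not tested.

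The atypical receptors bind chemokines without G protein signalling, and 0 of 4 passed the edgeR test. At an unadjusted p under 0.05, 1 was higher and 1 lower, as with DESeq2, and limma voom called 0 higher and 1 lower. Ackr4, which scavenges CCL19, CCL21 and CCL25, had a log2 fold change of -1.26 ± 0.40 with an edgeR adjusted p of 0.0695, and without antiCD47 4 it was -1.80 with an adjusted p of 0.021. Ackr1, which binds chemokines on venules and red cells, had 0.85 ± 0.27 with an adjusted p of 0.0699, and without antiCD47 1 it was 0.98 with an adjusted p of 0.0357. Ackr2, the scavenger of inflammatory CC chemokines, was at -0.04 ± 0.16, and Ccrl2, which presents ligands without signalling, at 0.54 ± 0.26 with an adjusted p of 0.178.

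Of the 10 other CC ligands, 6 passed the filter and 0 passed the edgeR test, with 1, Ccl12, higher at an unadjusted p under 0.05 and by DESeq2, and 0 by limma voom. The CCR7 ligands Ccl21a and Ccl19 had log2 fold changes of 1.17 ± 0.62 and 0.17 ± 0.15, and Ccl21a is uncertain because it has close copies among which reads can be split. The CCR10 ligands Ccl27a and Ccl28 had -0.13 ± 0.11 and 0.54 ± 0.85, and the CCR9 ligand Ccl25 had 0.07 ± 0.15. Their edgeR adjusted p-values were 0.221 to 0.764, and the values of Ccl19, Ccl25 and Ccl28 changed sign under other settings. The CCR6 ligand Ccl20 had 27 counts in IgG and 3 in antiCD47, with an adjusted p of 0.113 when no filter was applied. The CCR3 ligand Ccl11 had 14 and 25 counts, and the CCR8 ligand Ccl1 had 3 and 0.

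**Figure D5:**
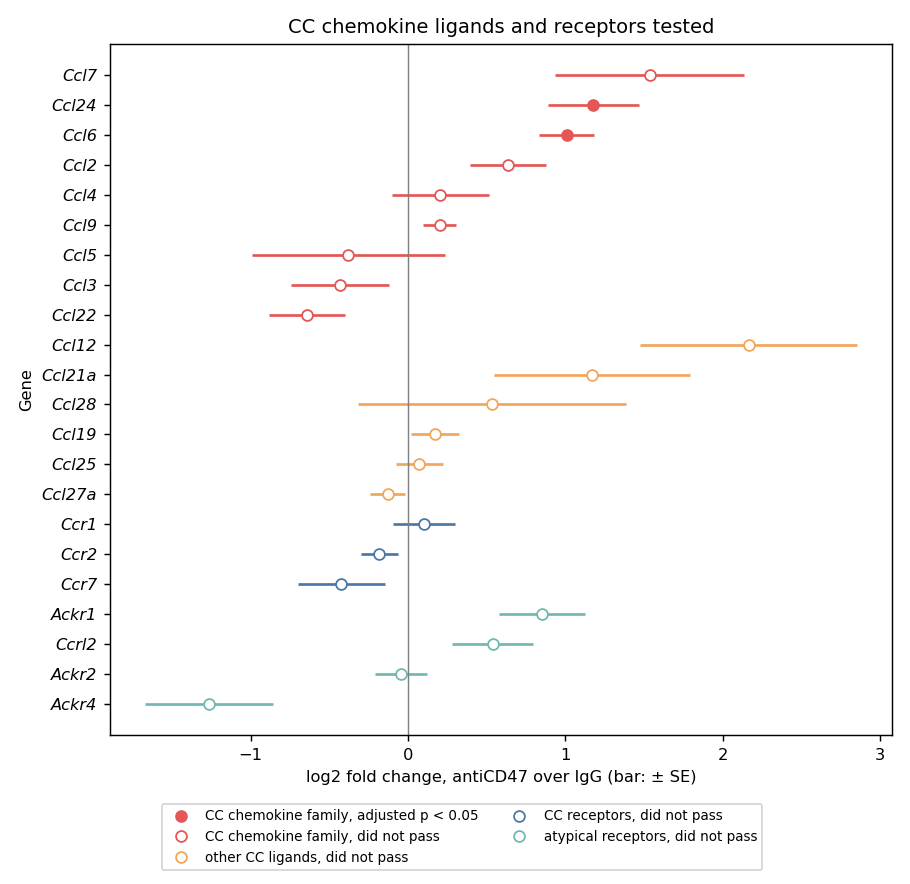
Log2 fold change of antiCD47 over IgG with its SE for the tested CC ligands and receptors described here, with filled points for an adjusted p under 0.05 by edgeR. Ccl6 and Ccl24 are the filled points, and Ccl12, Ccl7 and Ccl21a have larger or similar values with wider bars.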

How the data were processed

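Estimated counts per gene, in whole numbers, were deposited by the authors for the 8 liver libraries, and Salmon 1.3.0, DESeq2 1.32.0 and build GRCm39 are named in the submitters' processing notes with no role given. The authors' deposited comparison table holds, per the file headers, a mean normalised signal, a log2 fold change, a p-value, an adjusted p-value and a score. Its reference group is not stated, and it served for symbols and for the p-values credited to it. Use of strand in counting was not given in the sources used here.

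Counts were whole as deposited and were tested in R 4.3.3 with edgeR 4.0.16 (TMM scaling, filterByExpr, quasi-likelihood test, treatment as the only term), with Benjamini-Hochberg adjustment over 15472 genes and a threshold of 0.05. Of the 54309 genes, 27899 had no count. CPM used the same scaling, and 3 counts correspond to 0.0519 to 0.0695 CPM. The biological coefficient of variation was 16.7%. No 2 libraries of a group agreed within sampling noise. DESeq2 1.42.0, limma 3.58.1 and Biopython 1.88 served for the alternatives and the sequences. On 15247 genes of simulated counts for this comparison, edgeR recovered 34.3% of 1.5-fold, 77.6% of 2-fold and 92.4% of 4-fold changes. The changed genes were drawn at random over all levels, so these rates are not those of low members such as Ccl24. Simulated libraries varied gene by gene, with no difference shared by many genes of a library.

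The members and the 21 gene lists were chosen with earlier results of these data known. Named were the listed CC ligands and receptors, up to 4 called genes with the smallest p of every other list (up to 2 where none passed, not all of which are printed), and the 4 genes most like each called member. The list symbol Tf matched no gene. One further CC receptor gene is not reported here. Alternatives were other scalings, filters, tests, a replicate block, an adjusted p of 0.1 and leaving out each library.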

Additional observations from a re-analysis of the deposited data

Results flagged for a closer look

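Ccl8 in antiCD47 4 was at 0.88 CPM, far from the 0.0787 to 0.164 CPM of the other 3 antiCD47 libraries. Its gap to the nearest of them made up 0.894 of the range of the group, above the 95% critical value of Dixon's test for 4 samples. In IgG the same gene was high in IgG 2 and IgG 4. Such a gap was looked for in 46 pairs of a gene and a treatment group, and chance alone flags about 1 in 20.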

How the results depend on the processing

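Ccl6 kept its direction under all 19 alternatives and passed in 16, with adjusted p-values of 3.11e-06 to 0.063, and Ccl24 did so in 12 of 19 (0.00212 to 0.106). The count of all genes past the threshold was 1678, and it was 3581 with library totals, 3179 with DESeq2, 4331 with limma voom and quality weights, 3574 at an adjusted p of 0.1, and 2 (without IgG 4) to 3630 (without antiCD47 1) with a library left out, where the fits without IgG 1, IgG 3, antiCD47 2 and antiCD47 3 gave 174, 92, 756 and 21. The labels do not say whether the replicate numbers pair the libraries. Deviations of same-numbered libraries correlated at 0.032, 0.157, -0.023 and 0.035, and 1 of 8 libraries was closest to its own number. With so few libraries these values do not settle whether the numbers pair them. With the replicate number as a block 2425 genes passed, 1214 higher and 1211 lower, and 1 member was higher. Members higher were 0 without IgG 1, IgG 4 or antiCD47 3 and 4 without antiCD47 1, members lower were 0 to 1 with a library left out, and 1 was lower with quality weights. Signs turned for Ccl5 (-0.69 to 0.23 with a library left out), for Ccl19 (-0.021), Ccl25 (-0.12) and Ccr1 (-0.086) with library totals, for Ccl28 (-0.22 with voom, -0.0011 to 1.07 with a library left out) and for Ackr2 (0.0498 with quality weights, up to 0.053 with a library left out). The cause was not tested. Depth limits Ccl8 most, with 88 and 55 counts per group, and Ccl3, Ccl4, Ccl7, Ccl22 and Ccl24 had 151 to 384.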

Other observations

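Genes that act before or after the chemokines were counted from lists. Of 18 tested genes of the signals that induce CC chemokines, 5 rose and 0 fell, beside 5.44% of all tested genes higher. The lists were chosen with earlier results of these data known, so such counts are descriptions. Tlr2, a receptor for bacterial lipoproteins, was at 6.34 ± 0.962 CPM in IgG and 25.6 ± 22.3 CPM in antiCD47, from 7.73 to 57.5 CPM in the latter, with a log2 fold change of 2.01 ± 0.53 and an edgeR adjusted p of 0.0419. Without antiCD47 2 its log2 fold change was 1.24 with an adjusted p of 0.0605. Myd88, the adaptor of Toll-like receptors, rose by 1.05 ± 0.22 on the log2 scale, Rela, a subunit of NF-κB, by 0.42 ± 0.10, and Csf1, the macrophage growth factor, by 0.50 ± 0.13. The fifth, Il1b, lay outside the naming rule and was named after its values were seen, at 1.85 ± 0.350 and 3.17 ± 0.732 CPM with an edgeR adjusted p of 0.0438. Il1b passed in 9 of 19 alternatives and Tlr2 in 11 of 19.

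Of 8 tested genes of type 2 signalling, the setting in which macrophages make CCL24, 2 rose and 0 fell. Over all tested genes 5.44% were higher and 5.4% lower. Il13ra1, a receptor chain for IL-13, rose by 1.02 ± 0.17 on the log2 scale and Chil3, a marker of alternatively activated mouse macrophages, by 1.40 ± 0.24, with edgeR adjusted p-values of 0.016 and 0.0174. Other markers of alternative activation did not pass: Mrc1 had a log2 fold change of -0.15 ± 0.13, Clec10a -0.48 ± 0.28 and Arg1, which hepatocytes also express, -0.0026 ± 0.088. The ligand genes Il4, Il13 and Il5 had 0, 1 and 3 counts over all 8 libraries. Of 9 tested genes that trim chemokines or hold them on heparan sulfate, 1 rose and 1 fell, beside the same shares. Mmp9, a gelatinase of neutrophils and macrophages, rose by 1.48 ± 0.31 on the log2 scale. Mmp2, which removes the first residues of CCL7, fell by 1.62 ± 0.25 on that scale.

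Among markers of other cells, 2 of 7 lipid-associated macrophage markers fell (Spp1 and Cd63) and 4 of 5 cholangiocyte markers fell (Spp1 is in both lists). Of 5 stellate cell markers, 1 fell (Col1a1). Over all tested genes 5.4% were lower. In the edgeR test 0 of 5 hepatocyte, 0 of 5 endothelial and 0 of 6 B cell markers passed. Nor did platelet markers (0 of 3) or mast cell and basophil markers (0 of 1). Lpl, the lipoprotein lipase among the lipid-associated macrophage markers and named after its values were seen, was at 105 CPM in IgG and 153 CPM in antiCD47, with an edgeR adjusted p of 0.0537. At an unadjusted p under 0.05 the last 5 lists had 1, 1, 3, 1 and 0 markers higher and 0 lower, and DESeq2 and limma voom each called 1 B cell marker higher and none of the others. Of the 38 list genes that passed with all libraries, 0 still passed without IgG 4, 1 without antiCD47 3, 8 without IgG 1, 9 without IgG 3 and 17 to 37 without each of the others.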
